A study of Mus musculus with 8 samples.

Results

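The mitochondrial genome transcripts of the mouse heart were taken as every row of the deposited gene table whose gene name starts with mt-. The rule gave 32 of 17911 genes, of which 13 encode proteins, 19 encode transfer RNAs and 0 encode ribosomal RNAs. The annotation places 37 genes on the mouse mitochondrial genome, so all 13 protein genes and 19 of 22 tRNA genes were measured, and both rRNA genes (mt-Rnr1 and mt-Rnr2) and the tRNA genes mt-Ts1, mt-Td and mt-Tk were not analysed here. The table came from RNA sequencing of 8 mouse hearts, 4 male and 4 female, all of genotype C57Bl6/J wt, all with the same batch label, and with no treatment named. The submitters give the age as 4 weeks in one place and as 4 to 6 weeks in another, and call the animals adult. Each library was made from the RNA of 1 heart, lysed in Trizol and purified with a kit sold for miRNA isolation, while the molecule is recorded as total RNA. The title of the series concerns the RNA helicase DDX3X and the female heart, and the comparison these wild-type hearts allow is female against male. The labels name no mutation or transgene in any heart. Since each library is bulk tissue, fewer cells of a type and less RNA per cell cannot be told apart.

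The mitochondrial genome is a small circle present in many copies per cell. It is transcribed from both strands as long precursors, and the tRNAs that lie between the other genes are cut out to release the messenger and ribosomal RNAs. The messenger RNAs encode core subunits of respiratory chain complexes I, III and IV and of the ATP synthase, also called complex V. Heart muscle cells are packed with mitochondria and make most of their ATP by oxidative phosphorylation. All proteins that transcribe, cut, modify and translate these RNAs are encoded in the nucleus.

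Of the 19 tRNA genes, 5 were lower in females at an adjusted p under 0.05 in the authors' deposited comparison, against 2.73% of the genes with an adjusted p there. The limma fit described below called 1 of these, mt-Tc. The gene sequences of the 5 are shown because of the deposited calls. They come from the GENCODE transcripts of the GRCm38 assembly, which is the build called mm10, and are written as DNA on the gene's own strand. Capitals mark the anticodon, the triplet that reads the codon. The 5 genes are mt-Ti for isoleucine at chrM:3706-3774 on the plus strand, mt-Tq for glutamine at chrM:3772-3842 on the minus strand, mt-Tn for asparagine at chrM:5089-5159 on the minus strand, mt-Tc for cysteine at chrM:5192-5257 on the minus strand and mt-Ty for tyrosine at chrM:5260-5326 on the minus strand.
mt-Ti: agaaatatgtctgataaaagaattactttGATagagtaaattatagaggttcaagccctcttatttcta
mt-Tq: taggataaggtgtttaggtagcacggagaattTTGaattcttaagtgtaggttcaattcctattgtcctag
mt-Tn: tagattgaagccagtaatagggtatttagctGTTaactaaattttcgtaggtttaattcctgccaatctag
mt-Tc: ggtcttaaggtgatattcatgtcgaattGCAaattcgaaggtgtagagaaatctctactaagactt
mt-Ty: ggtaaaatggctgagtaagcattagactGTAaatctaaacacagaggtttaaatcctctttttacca
The genes mt-Ti and mt-Tq share 3 bases on opposite strands, and mt-Ti shares 2 bases with the end of mt-Nd1. The genes mt-Tn, mt-Tc and mt-Ty, together with mt-Ta for alanine at chrM:5018-5086, form 1 run of minus-strand tRNA genes between mt-Nd2 and mt-Co1. The origin of light strand replication is known to lie between mt-Tn and mt-Tc.

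A second set of sequences matters because it bears on the counts of some protein genes. In the GENCODE annotation, chrM:6390-11042 (4653 bases) has a nearly identical copy in the nuclear genome at chr1:24611535-24616188 on the minus strand. The copy is annotated as 7 unprocessed pseudogenes in the same order as the mitochondrial genes, with 2 mismatches over 4140 aligned bases. The 2 mismatches are A1066T between mt-Co1 and Gm29216 and T3C between mt-Nd3 and Gm28438, counted from 1 at the 5′ end of the mitochondrial gene, with the base of the copy second. The 60-base stretches that hold them follow, with the differing base in capitals.
mt-Co1: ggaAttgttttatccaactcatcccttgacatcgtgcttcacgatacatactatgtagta
Gm29216: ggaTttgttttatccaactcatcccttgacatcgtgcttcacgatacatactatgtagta
mt-Nd3: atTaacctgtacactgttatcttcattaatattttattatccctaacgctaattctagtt
Gm28438: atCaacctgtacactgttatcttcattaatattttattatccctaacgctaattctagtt
The other 5 copies were identical to their mitochondrial gene over the aligned length. The first 60 bases of mt-Co2, at chrM:7013-7072 and with the start codon in capitals, therefore also belong to its copy Gm28661.
mt-Co2 and Gm28661: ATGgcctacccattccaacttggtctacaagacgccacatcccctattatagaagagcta
In addition, mt-Atp8 and mt-Atp6 overlap by 43 bases on the same strand at chrM:7927-7969, shown with the start codon of mt-Atp6 in capitals, so reads within this overlap belong to both genes.
mt-Atp8 and mt-Atp6: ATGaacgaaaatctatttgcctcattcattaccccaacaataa

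Reads assigned to genes summed to between 51.7 M and 66.3 M per female heart and between 55.0 M and 75.7 M per male heart, where 1 M is 1000000. The submitters state a depth of 80 M reads, an unlike measure, since these sums hold only reads assigned to the genes analysed. The fewest reads in each sex were in female replicate 4 and male replicate 5. All 10 heart muscle marker genes were measured, with summed normalized counts of 4.38 M to 4.93 M in single hearts. The least abundant was the atrial light chain gene Myl7 at 25990, and 1 of the 10, the calcium release channel gene Ryr2, rose in females, with 0.20 as its log2 fold change (limma adjusted p = 0.0341). The list was split, with 6 negative and 4 positive fold changes and a median of -0.0024. Its most negative gene was the cardiac actin gene Actc1 at -0.19 (limma adjusted p = 0.0796). Of the other lists, 3 of 6 macrophage markers (C1qa, C1qb and Csf1r) fell in females, with log2 fold changes of -0.41, -0.39 and -0.36. Their limma adjusted p values were 0.0359, 0.0493 and 0.0481. The summed macrophage level was 10093 to 11993 in females and 12582 to 16117 in males, without overlap. Fat markers, with the brown fat gene Ucp1 among them, summed to 26033 to 33569 in females and 29656 to 35403 in males. Most of that sum was Fabp4, with 27347 ± 2219 in females and 28849 ± 2162 in males (n = 4 per sex, SD). Ucp1 varied widely, from 6.79 to 714 in single hearts, with 100 ± 122 in females and 325 ± 283 in males. Of the 5 fat markers, 0 were called in limma, 1 had an unadjusted p under 0.05 and 1 (Cidea) was called in DESeq2. Over all genes, limma called 0.687% lower and 0.475% higher in females, and 8.16% were lower at an unadjusted p under 0.05. DESeq2 called 2.73% of the genes it tested lower. Every female heart lay below every male heart for 4.82% of all genes. The part of these cell types in the mitochondrial results was not tested.

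Mitochondrial protein genes took 18.9% ± 0.822 (SD, n = 8) of all reads assigned to genes, meaning the 17911 genes analysed. The mitochondrial rRNA genes and the tRNA genes that were not analysed are outside that total. Of the 13 protein genes, 6 held only 0.0949% of the protein gene reads and have uncertain levels, as given below. The size of the protein gene share is therefore uncertain too. The share was 18.3%, 18.6%, 18.3% and 17.7% in female replicates 1 to 4, and 19.8%, 19.4%, 18.6% and 20.1% in male replicates 1, 3, 4 and 5. Female replicate 4 was the lowest heart and male replicate 5 the highest, each being the heart with the fewest reads of its sex, and only male replicate 4 lay within the female range. The mean was 18.2% ± 0.370 in females and 19.5% ± 0.654 in males (n = 4 per sex, SD), a difference of -1.23 percentage points, female minus male. A two-sided exact permutation test over the 70 assignments of hearts to the sexes gave p = 0.0571, or 0.0952 after Benjamini-Hochberg adjustment over the 5 shares and ratios tested, with 0.029 as the smallest p this design allows. Among the 5 most deeply sequenced hearts, which leave out female replicates 3 and 4 and male replicate 5, the difference was -0.815 points (exact p = 0.4, where 0.2 is the smallest possible). Each share rested on 9.17 M to 14.5 M reads, and its 95% Wilson interval, which covers counting error only, was at most 0.0212 points wide.

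The 19 tRNA genes took 0.120% ± 0.00713 (SD, n = 8) of all reads. Their share was 0.119%, 0.117%, 0.115% and 0.109% in female replicates 1 to 4, and 0.131%, 0.128%, 0.119% and 0.120% in male replicates 1, 3, 4 and 5. Female replicate 4 was again the lowest heart, while male replicate 5, the highest for the protein genes, lay just above the highest female and male replicate 4 just below it. The mean was 0.115% ± 0.00455 in females and 0.125% ± 0.00603 in males (n = 4 per sex, SD; difference -0.00962 points, exact permutation p = 0.0571, adjusted p = 0.0952). The ratio of tRNA to protein gene reads within a heart does not depend on the scaling between hearts, and its log2 mean was -7.31 in females and -7.29 in males (difference -0.02, exact permutation p = 0.571). Over all members the share was 18.4% ± 0.374 in females and 19.6% ± 0.656 in males (exact permutation p = 0.0571, adjusted p = 0.0952).

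**Figure D1:**
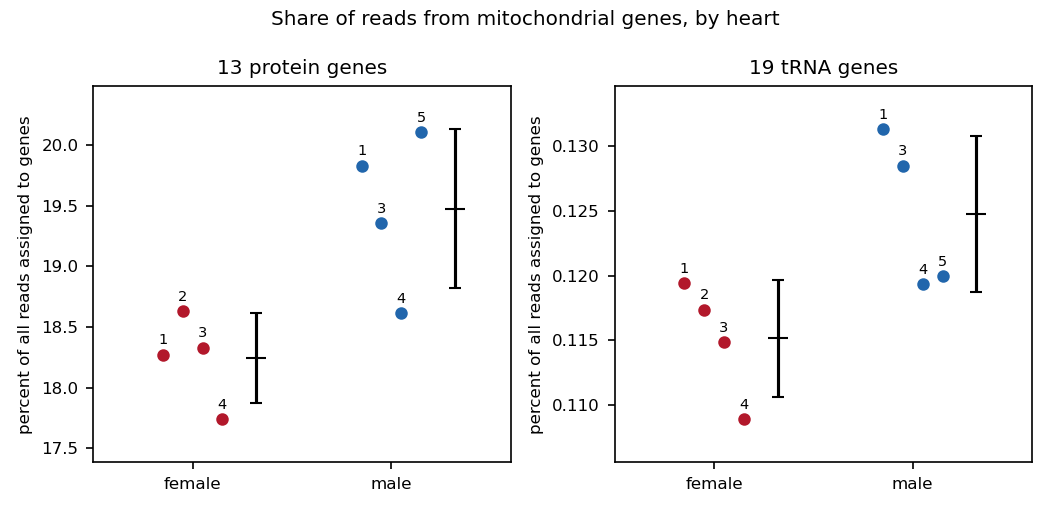
Percent of all reads assigned to genes that came from the 13 mitochondrial protein genes (left) and the 19 tRNA genes (right), 1 numbered point per heart, with mean ± SD beside each sex (n = 4); the axes do not start at 0. Female replicate 4 is lowest in both panels, and male replicate 5 is highest for protein genes only.

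Among the protein genes, levels were compared as normalized read count per kilobase (kb) of gene, where a normalized count is the read count divided by 1 size factor per heart. The gene mt-Co1, the catalytic subunit of complex IV, was highest. Female replicates 1 to 4 had normalized counts of 4.76 M, 4.83 M, 4.89 M and 4.56 M, and male replicates 1, 3, 4 and 5 had 5.23 M, 5.18 M, 5.00 M and 5.45 M. Every male heart exceeded every female heart. The gene mt-Co1 alone held 40.7% ± 0.437 of the reads of the mitochondrial genes analysed (SD, n = 8), at 3.23 M per kb. That total holds no rRNA genes, and it rests on the counts of all protein genes, of which some are uncertain, as given below. Next came mt-Cytb, the cytochrome b subunit of complex III, at 1.76 M per kb. The complex I subunit genes mt-Nd1, mt-Nd2, mt-Nd5, mt-Nd6 and mt-Nd4 followed at 1.52 M, 1.00 M, 0.836 M, 0.785 M and 0.537 M per kb. The order of these 7 genes was the same in 8 of 8 hearts.

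The gene mt-Nd6 is the only protein gene annotated on the minus strand. It overlaps mt-Nd5 by 14 bases on the opposite strand. Its share of protein gene reads was 3.20 to 3.46% in single hearts. The log2 ratio of mt-Nd6 to the summed plus-strand protein genes was -4.84 in females and -4.87 in males (difference 0.03, exact permutation p = 0.4). Reads from the 2 strands at such overlaps cannot be told apart without strand information, and the strand setting is not given in the sources used here.

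The other 6 protein genes were far lower. They are mt-Co2 and mt-Co3 of complex IV, mt-Atp6 and mt-Atp8 of the ATP synthase, and mt-Nd3 and mt-Nd4l of complex I. Their levels lay between 1788 and 13150.0 normalized counts per kb in single hearts, while the 7 higher genes lay between 0.502 M and 3.53 M. The lowest value of the higher genes was 38.2 times the highest value of the lower ones. From high to low, the mean levels per kb of the lower set were those of mt-Nd3 (11884), mt-Nd4l (5308), mt-Atp6 (3069), mt-Atp8 (2939), mt-Co2 (2175) and mt-Co3 (2134). Neighbours in this order kept it in 8 of 8 hearts, except mt-Atp6 and mt-Atp8 (6 of 8) and mt-Co2 and mt-Co3 (4 of 8).

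By normalized count, mt-Atp8, the shortest protein gene, was the lowest. It had 577, 577, 571 and 512 in female replicates 1 to 4, and 648, 628, 589.8 and 694 in male replicates 1, 3, 4 and 5. The groups did not overlap, and female replicate 4 stood below the other females. By level per kb the lowest was mt-Co3. Its normalized count was 1904, 1617, 1476 and 1402 in female replicates 1 to 4, and 1698, 1744, 1603 and 1938 in male replicates 1, 3, 4 and 5, with overlap of the groups.

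All 6 low protein genes lie wholly inside the stretch that is copied on chromosome 1, and none of the 7 higher ones does. Within the stretch lie 31.3% of mt-Co1 and 63.6% of mt-Nd4. The 6 genes make up 26.3% of the length of the protein genes and held 0.0949% ± 0.00620 of their reads (SD, n = 8). The share of 100-base windows with an exact match in a nuclear transcript was 99.5% for mt-Co2, 99.5% for mt-Atp6, 99.9% for mt-Co3, 97.6% for mt-Nd3 and 98.5% for mt-Nd4l. It was 60.8% for mt-Nd4, 30.8% for mt-Co1, 3.19% for mt-Nd2 and 0% for mt-Nd1, mt-Nd5, mt-Nd6 and mt-Cytb. For mt-Atp8 it was also 0%, because the annotated copies on either side leave all but 43 of its bases uncovered. Whether reads that match both places were left out in the authors' counting was not tested, so the levels of these 6 genes are uncertain.

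Reads were also assigned to the copies themselves. Single hearts had between 132 and 1219 normalized counts for each of the 7 pseudogenes. The copy of mt-Co2, Gm28661, had 1090.5 ± 106 (SD, n = 8), and mt-Co2 exceeded it 1.36-fold per kb. The corresponding ratio was 1.87 for mt-Co3 over Gm28437, 1.92 for mt-Atp6 over Gm10925 and 5.85 for mt-Nd4l over Gm10222. It was 25.9 for mt-Nd3 over Gm28438, a pair that differs by 1 base. All of these pairs lay far below those in which the mitochondrial gene is partly outside the stretch. For those the ratio was 777 for mt-Nd4 over Gm28439 and 1967 for mt-Co1 over Gm29216. Counted per kb of the part outside the stretch, mt-Co1 reached 4.70 M and mt-Nd4 1.47 M, on the assumption that all of their reads came from there. At that value mt-Nd4 would stand above mt-Nd2, mt-Nd5 and mt-Nd6 and not below them, so its place in the order is uncertain.

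By respiratory complex, complex I subunits held 42.5% ± 0.477 of protein gene reads, complex IV subunits 41.0% ± 0.444, complex III (mt-Cytb) 16.5% ± 0.177 and the ATP synthase subunits 0.0221% ± 0.00131 (SD, n = 8 each). Both ATP synthase genes, mt-Co2 and mt-Co3 of complex IV and mt-Nd3 and mt-Nd4l of complex I are among the 6 genes of uncertain level, so these shares are uncertain too.

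**Figure D2:**
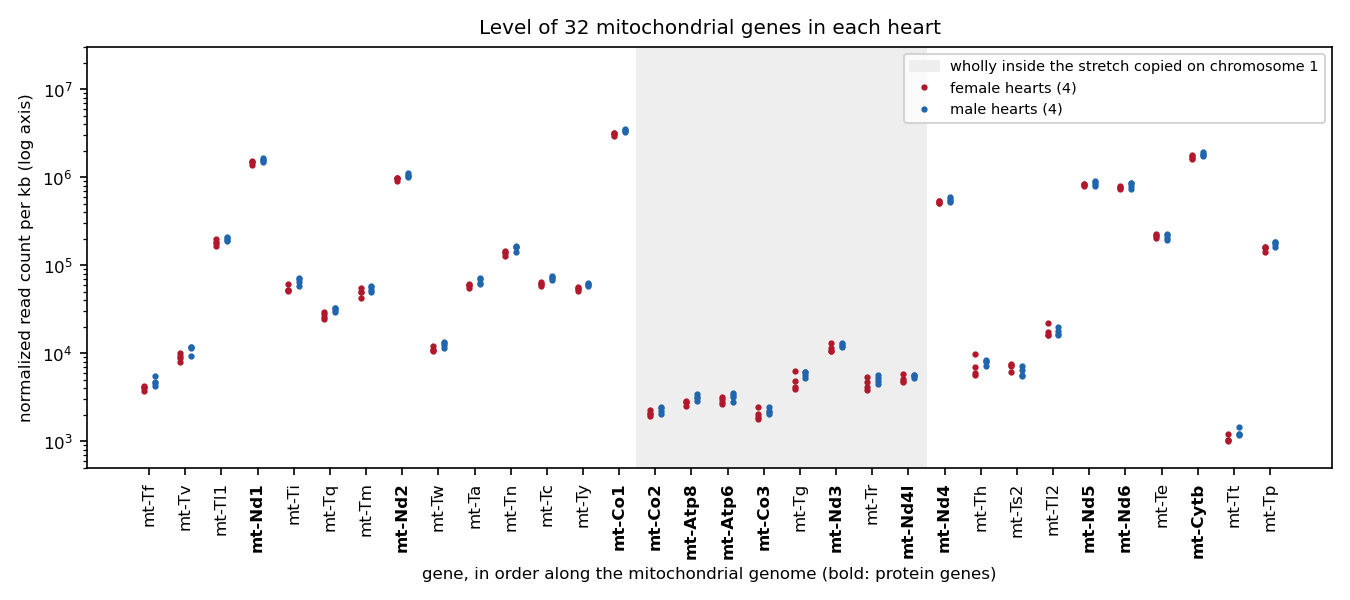
Normalized read count per kb (log axis) of the 32 genes in order along the mitochondrial genome, with 1 point per heart and protein genes in bold; grey marks the genes wholly inside the stretch copied on chromosome 1. All 6 protein genes in the grey band lie at or below 13150.0 per kb, and the 7 outside lie above 0.50 M.

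Levels of the 19 tRNA genes spanned 1166 to 212779 normalized counts per kb. Counts do not separate mature tRNAs from longer precursors. The gene mt-Te for glutamate, which directly precedes mt-Nd6 on the minus strand, was highest. Its normalized count was 15107, 15565, 14752 and 14199.9 in female replicates 1 to 4, and 15406, 14070.4, 13150.0 and 15205 in male replicates 1, 3, 4 and 5. The sexes overlapped, and the lowest heart was male replicate 4. After it came mt-Tl1 for leucine, mt-Tp for proline and mt-Tn for asparagine, with 7 of 8, 8 of 8 and 7 of 8 hearts keeping the order of each successive pair. The lowest was mt-Tt for threonine, which lies between mt-Cytb and mt-Tp. Its normalized count was 80.5, 69.8, 67.1 and 69.4 in female replicates 1 to 4, and 97.0, 80.9, 81.8 and 78.4 in male replicates 1, 3, 4 and 5, with female replicate 1 inside the male range. Over the whole list, 9 of 18 neighbouring pairs kept their order in all hearts.

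The 7 tRNA genes on the minus strand held 65.7% ± 0.622 of tRNA reads (SD, n = 8), although 12 genes lie on the plus strand. Their median normalized count in single hearts was 3805 to 4982, against 488 to 680.4 for the plus strand, so the ranges did not overlap. These genes lie opposite the plus-strand precursor, and without strand information reads from it and from the tRNA genes cannot be told apart. Among plus-strand tRNAs, mt-Tl1, which directly precedes mt-Nd1, reached 189825 per kb. The 2 measured tRNA genes inside the copied stretch, mt-Tg for glycine and mt-Tr for arginine, had 5297 and 4771 per kb, and mt-Th, mt-Tf and mt-Ts2 outside it had 7482, 4388 and 6608. Both mt-Tg and mt-Tr count as inside by position only, since 0% of their 50-base windows matched an annotated nuclear transcript exactly.

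To compare the sexes, log2(normalized count + 1) of all 17911 genes was fitted with limma, and a gene was called where its p, adjusted over all genes by the method of Benjamini and Hochberg, was under 0.05. All log2 fold changes are female minus male on this scale. Of the 32 mitochondrial genes, 1 was called lower in females and 0 higher, which is 0 of 13 protein genes and 1 of 19 tRNA genes. Over all genes 208 were called, or 1.16% (0.687% lower and 0.475% higher), so a single call among 32 genes is close to that background. The sign of the fold change was negative for 29 of 32 members, against 49.1% of all genes. An unadjusted p under 0.05 with a lower female level was found for 15 of 32, against 8.16% of all genes, and with a higher level for 0 of 32, against 7.84%. By the authors' deposited table, 1 protein gene (mt-Co1) and 5 tRNA genes (mt-Ti, mt-Tq, mt-Tn, mt-Tc and mt-Ty) were lower in females at an adjusted p under 0.05, which is 6 of 32 against 2.73% of the genes with an adjusted p there, and 0 were higher, against 2.16%. The thresholds in the labels, a log2 fold change over 0.6 in size and an unadjusted p under 0.05, were met by 0 of 32, against 1.5% of all genes. These genes share precursors and size factors, and are not independent of each other.

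All 13 protein genes lay below 0 in log2 fold change, from -0.19 to -0.05. In limma, edgeR and limma-voom 0 of 13 were called, against 0.687%, 0.592% and 0.597% of all genes called lower. In DESeq2 1 of 13 was called (mt-Co1), against 2.73% of the genes it tested. An unadjusted limma p under 0.05 was found for 4 of 13, all lower, against 8.16% of all genes. The median was -0.12, beside 0.00 for all genes, and it was -0.03 among the 5 most deeply sequenced hearts, where mt-Co3 and mt-Nd5 lay above 0. With total reads as a covariate it was -0.13. Female replicate 4 was the lowest heart for 12 of the 13 genes and male replicate 5 the highest for 11. For mt-Co1, whose values are given above, the fold change was -0.13 (SE 0.04; limma adjusted p = 0.127). The authors' deposited table lists it at -0.13 with an adjusted p of 0.0152. For mt-Nd2, female replicates 1 to 4 had 1.00 M, 1.02 M, 1.02 M and 0.933 M, and male replicates 1, 3, 4 and 5 had 1.09 M, 1.07 M, 1.03 M and 1.15 M. Its groups did not overlap either, with a fold change of -0.13 (SE 0.04; limma adjusted p = 0.164).

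The third protein gene without overlap was mt-Atp8, at -0.19 (SE 0.07; limma adjusted p = 0.174). The smallest fold change was that of mt-Nd5, at -0.05 (SE 0.04; limma adjusted p = 0.621), whose females at 1.44 M to 1.54 M overlapped the males at 1.45 M to 1.66 M. For the complex III gene mt-Cytb, the females at 1.85 M to 2.01 M overlapped, narrowly, the males at 2.01 M to 2.21 M, and the fold change was -0.11 (SE 0.04; limma adjusted p = 0.235). The complex I genes mt-Nd1, mt-Nd4 and mt-Nd6 lay at -0.10, -0.09 and -0.08, each with overlap. Females and males had 1.31 M to 1.46 M and 1.42 M to 1.595 M for mt-Nd1, 0.691 M to 0.742 M and 0.720 M to 0.820 M for mt-Nd4, and 0.378 M to 0.413 M and 0.384 M to 0.444 M for mt-Nd6. The 6 low genes inside the copied stretch ranged from -0.19 to -0.12, and the 7 others from -0.13 to -0.05. The sexes overlapped for 5 of the 6 low genes, and female replicate 1 passed the highest male for mt-Nd3 and mt-Nd4l. The female and male ranges were 3643 to 4576 and 4087 to 4529 for mt-Nd3, 1385 to 1716 and 1537 to 1699 for mt-Nd4l, 1317 to 1551 and 1390.2 to 1681 for mt-Co2, and 1806 to 2185 and 1922 to 2412 for mt-Atp6. Of the 7 nuclear copies, 6 had negative fold changes (range -0.22 to 0.07 over the 7). In limma 0 of the 7 were called, and 4 were lower at an unadjusted p under 0.05, against 8.16% of all genes. In DESeq2 1 was called lower, the copy of mt-Co2, against 2.73% of the genes it tested.

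The tRNA gene mt-Tc for cysteine fell in females. Its normalized count was 4242, 4076, 4074 and 3805 in female replicates 1 to 4, and 4805, 4927, 4689.6 and 4450.4 in male replicates 1, 3, 4 and 5. Every male heart exceeded every female heart. The mean was 4049 ± 181 in females and 4718 ± 203 in males (n = 4 per sex, SD), and the log2 fold change was -0.22 (SE 0.04; limma adjusted p = 0.0280). The call was lost when any of 6 hearts was left out: the limma adjusted p was 0.0853, 0.0608 and 0.0620 without female replicates 2, 3 and 4, and 0.0712, 0.0822 and 0.0734 without male replicates 1, 3 and 4. With total reads as a covariate it was 0.0519, and among the 5 most deeply sequenced hearts 0.0558. The direction was the same in all of these fits.

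The 4 tRNA genes with the smallest p lie on the minus strand. After mt-Tc these were mt-Ty at -0.16 (SE 0.04; limma adjusted p = 0.0697), mt-Tn at -0.19 (SE 0.05; limma adjusted p = 0.0935) and mt-Tq at -0.23 (SE 0.06; limma adjusted p = 0.0943). The gene mt-Ty had 3748, 3616, 3679.7 and 3430.0 in female replicates 1 to 4, and 4132, 4214, 3969 and 3874 in male replicates 1, 3, 4 and 5, without overlap. For mt-Tn the females had 10144, 10038, 9827 and 9062 and the males 11710.3, 11387, 11427 and 10109. Only male replicate 5 lay within the female range of mt-Tn, which is the heart with the highest protein gene share.

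For mt-Tq the females had 1842, 1993, 2110.3 and 1719.9, and the males 2334, 2299, 2225 and 2106, so male replicate 5 again lay below the highest female, by a narrow margin. The plus-strand gene mt-Ti, whose 3′ end overlaps mt-Tq, had 3491, 3558, 4206 and 3614 in females and 4767, 4933, 4394 and 3987 in males. Its fold change was -0.28 (SE 0.08; limma adjusted p = 0.129), with female replicate 3 and male replicate 5 in reversed order. The third tRNA gene without overlap of the sexes was mt-Ta, beside mt-Tn, at -0.17 (SE 0.06; limma adjusted p = 0.168). In all, 3 protein and 3 tRNA genes had every female heart below every male heart, 6 of 32 against 4.82% of all genes, and 0 of 32 had the reverse, against 4.52%.

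**Figure D3:**
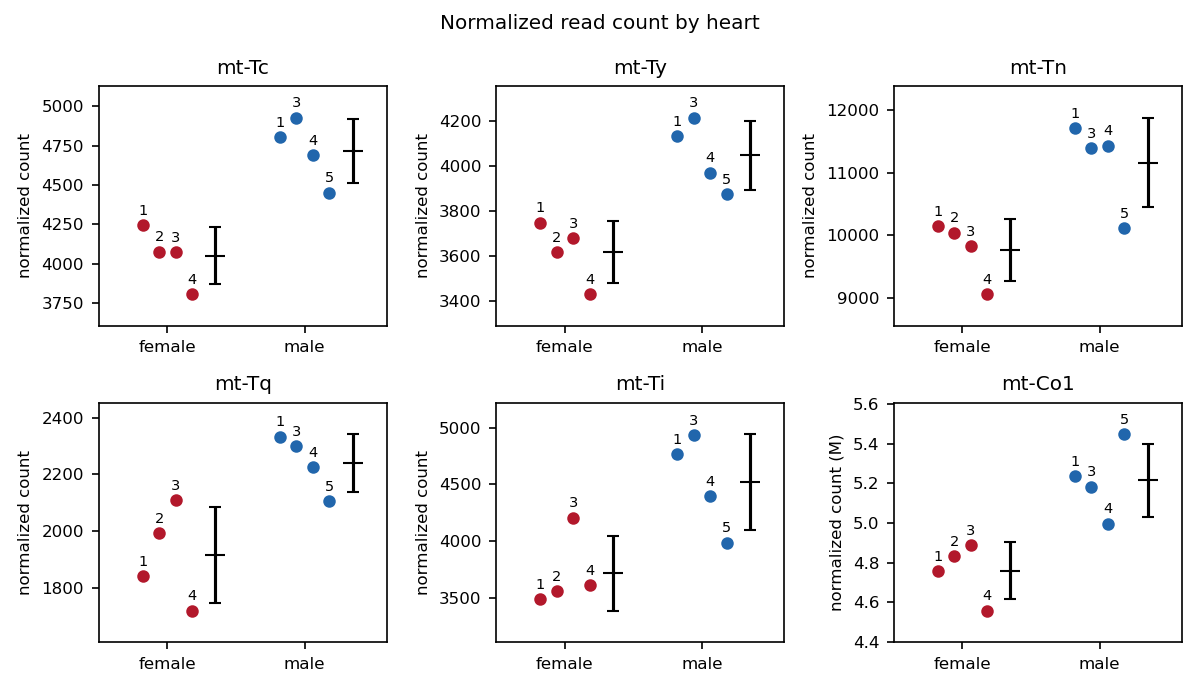
Normalized count per heart of the 6 mitochondrial genes with an adjusted p under 0.05 in the authors' deposited table (mt-Co1 in M), with mean ± SD beside each sex (n = 4); points carry the replicate number and the axes do not start at 0. The sexes do not overlap for mt-Tc, mt-Ty and mt-Co1, and male replicate 5 is the lowest male for all 5 tRNA genes and the highest for mt-Co1.

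Over the 19 tRNA genes, 16 fold changes were negative and 3 positive, with a median of -0.18 and a range of -0.29 to 0.19. The most negative was mt-Tg at -0.29 (SE 0.14; limma adjusted p = 0.329), whose counts of 264 to 429.7 in females and 358 to 418 in males overlapped. The 3 positive genes were mt-Ts2 for serine at 0.19 (SE 0.10; limma adjusted p = 0.378), mt-Te at 0.05 and mt-Tl2 for leucine at 0.02, and the sign of the last 2 turned in some other fits. Female replicate 4 was the lowest heart for 14 of the 19 genes. Male replicate 5 was the highest for 3 of 19, against 11 of 13 protein genes. The abundant genes mt-Tp and mt-Tl1 had ranges that overlapped narrowly, with 9513 to 10898 in females and 10732 to 12422 in males for mt-Tp, and 12525 to 14671 and 14220 to 15627 for mt-Tl1. The valine gene mt-Tv, which separates the rRNA genes, had 553 to 694 in females and 636 to 814 in males (log2 fold change -0.28). The methionine gene mt-Tm had 2889 to 3837 and 3388 to 4024, and the tryptophan gene mt-Tw 713 to 806 and 759 to 887, at log2 fold changes of -0.15 and -0.17. Female replicate 1 was the highest of all 8 hearts for 3 tRNA genes of low count, mt-Tg, mt-Th and mt-Tl2. For mt-Th, the histidine gene, females had 381 to 651 and males 478 to 562, and for mt-Tl2 the ranges were 1132 to 1568 and 1133 to 1398. The coefficient of variation, taken within each sex and averaged over the sexes, was 3.79 to 16.5% for tRNA genes and 3.29 to 10.96% for protein genes.

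**Figure D4:**
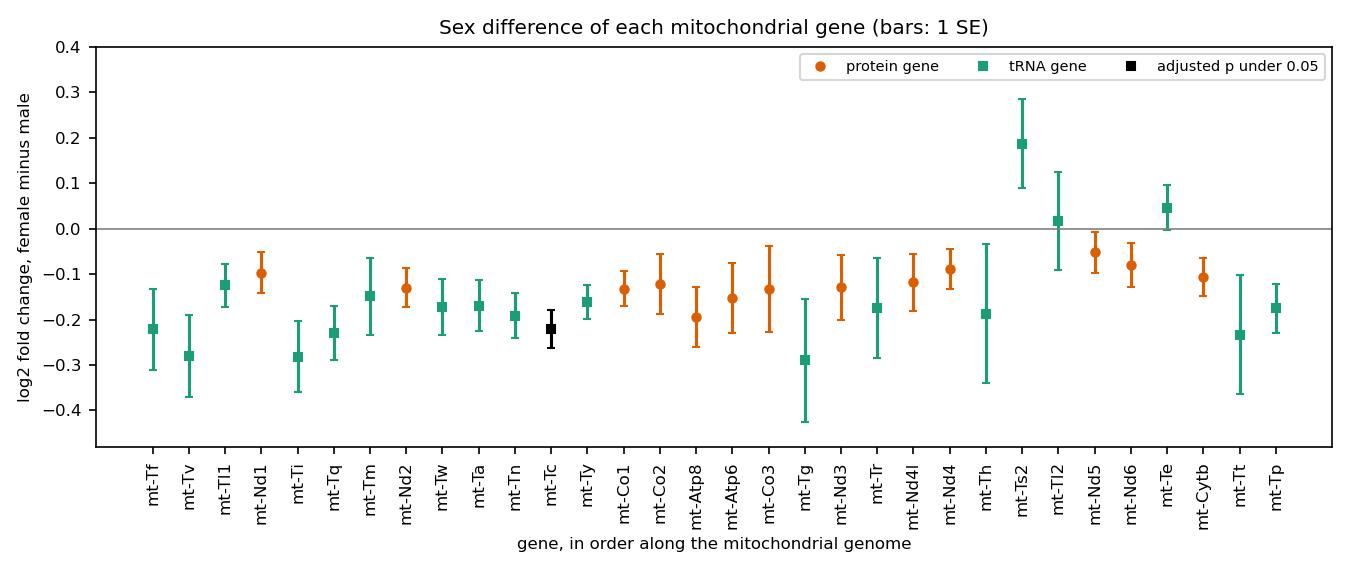
Log2 fold change, female minus male, of the 32 genes in order along the mitochondrial genome, with bars of 1 SE from the limma fit; circles are protein genes, squares tRNA genes, and black marks the gene with an adjusted p under 0.05. All 13 protein genes and 16 of 19 tRNA genes lie below 0.

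Nuclear genes that serve the mitochondrial genome were examined as 82 genes in 4 lists, all measured, and 0 were called in either direction by limma, edgeR, limma-voom or DESeq2. An unadjusted limma p under 0.05 was found for 8 of 82 with a lower and 9 of 82 with a higher female level, close to the 8.16% and 7.84% of all genes. The transcription list had 12 genes and a median of -0.01. The mitochondrial RNA polymerase gene Polrmt had 2388 ± 89.7 in females and 2362 ± 112 in males, and the packaging and transcription factor gene Tfam 2674 ± 74.7 and 2643 ± 75.3 (normalized counts, SD, n = 4 per sex). The smallest p of this list belonged to Tfb1m, the methylase of the small ribosomal RNA, at a log2 fold change of -0.17 (limma adjusted p = 0.260), followed by Mrpl12 at -0.10 and Mterf1b at 0.27.

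The RNA processing list had 33 genes and a median of -0.02, with Fastkd1 at 0.13 (limma adjusted p = 0.164), the pseudouridine synthase gene Pus1 at 0.13 and Rpusd4 at -0.17 leading by p. The DNA maintenance list had 16 genes and a median of 0.03, led by Mpv17, an inner membrane protein needed to keep mitochondrial DNA, at 0.15 (limma adjusted p = 0.132). It was followed by the nucleotide reductase subunit gene Rrm2b at 0.13 and the exonuclease gene Mgme1 at 0.17. The tRNA charging list had 21 genes and a median of 0.00, led by the phenylalanine enzyme gene Fars2 at -0.13 (limma adjusted p = 0.115), Mars2 for methionine at 0.14 and Sars2 for serine at 0.15. None of these passed the test.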

How the data were processed

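Per the file headers and the values, the authors deposited for each gene and heart a signal that is the read count divided by 1 size factor per heart (0.821 to 1.17), with a log2 fold change and p-values that the authors computed for female against male. The genome build was mm10, per the submitters' processing notes. No aligner, counter, strand setting, rule for reads with several matches or test of the authors is named: these were not given in the sources used. All values were whole multiples of the value of 1 read (100%, tolerance 0.001 reads), so whole reads were recovered and used for shares and for count tests.

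The sexes were compared with limma 3.58.1 in R 4.3.3 (trend and robust options) on log2(value + 1) over 17911 genes, 4 hearts against 4, with no covariate and Benjamini-Hochberg adjustment. The filter, a value of at least 1 in 4 or more hearts, removed 0 genes and kept all 32 members. For shares and ratios the test was the two-sided exact permutation test. Ratios and shares with the rRNA genes were planned and could not be computed. Copies were found with BLAST 2.17.0 in the GENCODE transcripts of GRCm38, and the stretch joins copies of at least 99% identity. The anticodon was located as the match nearest the middle of the gene.

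The members, gene lists and tests were chosen with earlier results of these data known. Named were all members, with values per heart for those called and the most and least abundant of each class, and up to 3 genes with the smallest p of each nuclear list. Polrmt, Tfam and Lars2 were named outside this rule, after their values were seen. The copies of members were named too. Values per heart of mt-Nd2, mt-Ty, mt-Tn, mt-Tq, mt-Ti and mt-Atp8 were added after they were seen. A chi-square per degree of freedom of 8.21 to 18.4 between hearts of a sex was far above sampling noise, so each heart was counted as 1 sample. The tests were tried on simulated data. Alternatives were edgeR 4.0.16, DESeq2 1.42.0 and limma-voom on the whole reads, scaling to reads outside the mitochondrial genome, other pseudocounts and a filter on low values, blocks by replicate number, total reads as a covariate, the thresholds in the labels, leaving out each heart, the 5 most deeply sequenced hearts, other denominators, and shares without the members inside the copied stretch.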

Additional observations from a re-analysis of the deposited data

Results flagged for a closer look

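Within each sex, the highest and lowest heart were compared with the other 3 hearts for each member, share and ratio, 74 groups in all. In 1 of them a heart lay apart: mt-Atp8 had a normalized count of 511.6 in female replicate 4, against 571, 577 and 577 in the other females. The gap to the next heart was 0.902 of the range of the group, above Dixon's 95% critical value for 4 samples. Chance flags about 1 in 20 such groups. Female replicate 4 also had the fewest reads and the lowest share of mitochondrial reads, and mt-Atp8 overlaps mt-Atp6 and lies in the stretch copied on chromosome 1. The part of depth or of counting in this value was not tested.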

How the results depend on the processing

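Over 19 alternatives, 607 values of single genes were computed, of which 576 kept their direction and their side of the threshold. The call of mt-Tc was lost in 9, as in part given above, 14 other values passed, and 8 turned in direction. Turned were mt-Co3 (0.0623), mt-Th (0.0934) and mt-Nd5 (0.00654) in the 5 most deeply sequenced hearts, mt-Tl2 (-0.0190) and mt-Te (-0.0196) with the block by library code, and mt-Tl2 in 3 fits that left out a heart (-0.0868 lacking female replicate 1, -0.0279 lacking male replicate 4 and -0.00670 lacking male replicate 5, with 0.0733 as the highest of such fits). The other 27 genes never turned. The cause of these changes was not tested.

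The main fit called 0 protein and 1 tRNA gene lower. With DESeq2 it was 1 (mt-Co1) and 5 (mt-Ti, mt-Tq, mt-Tn, mt-Tc and mt-Ty), against 2.73% of the genes it tested. The authors' deposited comparison has the same members lower, and both have 385 of 14088 genes lower. These 2 should therefore not be counted as separate results. Scaled to reads outside the mitochondrial genome, the calls were 1 protein gene (mt-Co1) and 1 tRNA gene, against 0.815% of all genes. Of the tRNA genes, 0 were called with total reads as a covariate or by the thresholds in the labels, and 2 (mt-Ti and mt-Tn) in the 5 hearts, against 0.497% of all genes. Without 1 heart, 0 to 0 protein genes and 0 to 5 tRNA genes were called, 5 of them without male replicate 5, where 516 of all genes were called (1.55% of all genes lower). The median of the protein genes was -0.0326 in the 5 hearts and -0.152 to -0.0825 without 1 heart.

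Whether the replicate numbers of the titles or of the library codes pair the hearts is not settled, and the main fit used no pairing. Same-numbered hearts correlated at -0.108 to 0.166 by title and at -0.0463 to 0.166 by library code, over 3 pairs each. In each case 1 of 3 was best for its own number, and the other pairs ran from -0.18 to 0.151. So few pairs cannot decide the question. With the block by title number 3 tRNA genes were called lower (mt-Ti, mt-Tn and mt-Tc), against 0.491% of all genes, and with the block by library code number 0, against 0.0837%, with mt-Tc at a limma adjusted p of 0.153.

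Over all genes, calls numbered 208 in the main fit, 690 with DESeq2, 26 with the library code block, and 77, 110, 129, 137, 94 and 85 without female replicates 2, 3 and 4 and male replicates 1, 3 and 4. Shares and ratios missed the threshold under all alternatives run. Without 1 heart the exact permutation test allows no p below 0.0571, and among the most deeply sequenced hearts none below 0.2. Those runs could not have passed the threshold, so only their direction and size can be read. The direction was kept under all alternatives run, at -1.52 to -1.02 points for protein genes without 1 heart. The difference in the log2 ratio of tRNA to protein reads then ran from -0.0554 to -0.00404, and in that of mt-Nd6 to plus-strand reads from 0.0128 to 0.0523. The unadjusted exact p of the tRNA share was 0.029 with nuclear denominators or without the members in the copied stretch. For mt-Tt, whose counts were below 100 on average, the filter on low values gave no result.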

Other observations

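Further from the copied stretch, other nuclear genes also match members. Gm13340 on chromosome 2 matches mt-Co1 over its whole length at 97.6% identity and had 769 ± 46.3 normalized counts in females and 873 ± 53.2 in males (n = 4 per sex, SD), while mt-Co1 had 4.76 M and 5.21 M. Gm13341, beside it, matches mt-Co2 at 95.9% and had 446 ± 32.8 and 502 ± 56.5. Transcript sequence of Cep295 on chromosome 9 matches 4 tRNA genes of the run between mt-Nd2 and mt-Co1, at 84.1% identity for mt-Tc, 88.3% for mt-Ty, 89.8% for mt-Ta and 91.5% for mt-Tn, and mt-Tl1 outside the run at 93.5%. As a whole gene Cep295 had 596 ± 21.9 and 641 ± 25.7.

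Among the nuclear genes for tRNA charging, Lars2, the mitochondrial leucine enzyme gene, was named after its values were seen. It had 70009 ± 24801 normalized counts in females and 53905 ± 5229.5 in males (n = 4 per sex, SD), with a limma adjusted p of 0.602.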
